A study of Mus musculus with 12 samples.

Results

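Keratins are described here through 9 genes, Krt7, Krt8, Krt18 and Krt19 (luminal or simple-epithelial keratins), Krt5, Krt14 and Krt17 (basal keratins), and Krt10 and Krt80, which belong to neither class. They were taken by gene symbol, by a rule that uses no measured value, though with earlier results of these data known, from tables that list 56691 genes. All 9 were found, and 45 further keratin symbols are listed beside them. RNA was sequenced from 2 mouse mammary tumour lines in culture, 4T1 and EMT6. The groups were 4T1 KO, 4T1 WT, EMT6 KO and EMT6 WT, with 3 libraries each and 12 in all. KO cells are derivatives labelled sgNEDD4, the notation of a guide RNA against Nedd4, an E3 ubiquitin ligase. WT cells carry the title Control, and the labels do not say whether they received a guide. The labels do not say whether a KO group is 1 clone or a pool, or whether replicate libraries are from different cultures, so p-values measure only the spread between these libraries.

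Keratins are the intermediate filament proteins of epithelial cells. A type I keratin pairs with a type II keratin, and neither forms filaments alone. In the mammary gland, luminal cells carry the type II keratins Krt8 and Krt7 with the type I keratins Krt18 and Krt19, while basal and myoepithelial cells carry type II Krt5 with type I Krt14 and Krt17. Krt10 is a type I keratin of the upper layers of the epidermis, and Krt80 is a type II keratin of epithelia.

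Libraries held 13705612 to 19761604 counts, so 3 counts stood for 0.152 to 0.219 CPM. Levels are given as FPKM, the authors' counts scaled to exon length and library total. Comparisons of FPKM between genes therefore rest on the deposited exon lengths. These were 7049 bases for Krt7 and 6393 for Krt80, against 1437 to 2197 for the other keratins. Nedd4 stood at 24.74 to 25.32 FPKM in 4T1 KO and 93.52 to 97.58 FPKM in 4T1 WT libraries (log2 change -2.01), and at 11.46 to 12.12 FPKM in EMT6 KO and 116.5 to 122.48 FPKM in EMT6 WT libraries (-3.34; edgeR, adjusted p = 6.19e-21 and 5.6e-16). The labelled mammary tumour origin was checked with 4 epithelial markers, whose summed FPKM was 215 to 227 in 4T1 KO and 289 to 296 in 4T1 WT, and 0.22 to 0.52 in EMT6 KO and 1.19 to 1.25 in EMT6 WT. In 4T1 the cadherin Cdh1 averaged 142 ± 3.92 FPKM in KO and 136 ± 1.92 FPKM in WT (SD, n = 3 each, as for all means below), and the adhesion molecule Epcam 72.0 ± 2.42 FPKM in KO and 149 ± 5.16 FPKM in WT. In EMT6 Cdh1 was at most 0.01 FPKM in KO and 0.02 FPKM in WT libraries, the splicing factor Esrp1 was at 0 in all 6, and Epcam averaged 0.397 ± 0.164 FPKM in KO and 1.19 ± 0.0551 FPKM in WT, so these defining epithelial markers were near or at 0 in EMT6. The claudin Cldn7, also on the list, was near 0 in both lines, at 0.020 FPKM in 4T1 KO and 0.0333 FPKM in 4T1 WT, and at 0 in EMT6 KO and 0.0233 FPKM in EMT6 WT. Between 20937 and 21264 genes had a count in 4T1 KO and between 18836 and 19017 in 4T1 WT, and the part of this difference in the results was not tested.

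Both lines were dominated by the simple-epithelial pair Krt8 and Krt18, and the basal keratins were far lower, with Krt5 undetected in both lines. Krt8 and Krt18 together made up 91.2 ± 0.138% of the summed FPKM of the 9 genes in 4T1 KO and 93.6 ± 0.22% in 4T1 WT. In EMT6 they made up 98.3 ± 0.138% in KO and 96.7 ± 0.267% in WT. These shares depend on the exon lengths. By CPM, which does not divide by length, Krt7 held a larger part of the sum in 4T1 than by FPKM. It stood at 418 to 429 CPM in 4T1 KO, of 2402 ± 62.3 for the 9 genes. In 4T1 WT it stood at 381 to 417 CPM, of 3172 ± 79.3. Krt8 was carried at a like order of magnitude by both lines, while Krt18, Krt7 and Krt19 were far higher in 4T1, and Krt80 stood between 4.98 and 8.99 FPKM in all 12.

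**Figure D1:**
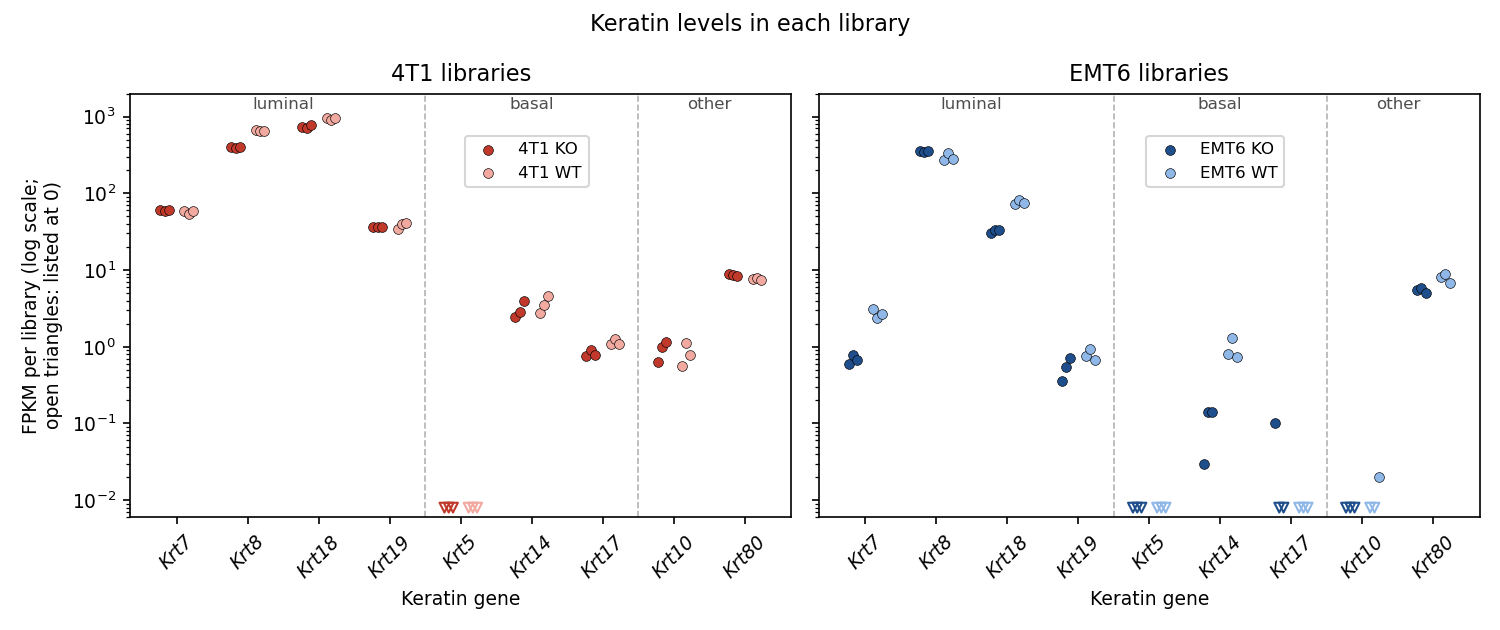
FPKM of the 9 keratins in each library (log axis; open triangles mark values listed at 0), with KO left of WT within each gene and 4T1 and EMT6 in separate panels. Krt18 and Krt8 lead in 4T1, Krt8 alone leads in EMT6, and Krt5 is at 0 in all 12 libraries.

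The order of mean FPKM differed between the lines. In 4T1 it was Krt18, Krt8, Krt7, Krt19, Krt80 and Krt14 in both groups, followed by Krt10 and Krt17, whose libraries overlapped each other in KO and in WT, and Krt5 at 0. In EMT6 it was Krt8, Krt18, Krt80 and Krt7 in both groups. Below these, Krt7 and Krt19 overlapped in EMT6 KO, and Krt14 and Krt19 overlapped in EMT6 WT. By CPM the Krt7 libraries of EMT6 KO (4.22, 5.57 and 4.70) lay above those of Krt19 (0.67, 1.01 and 1.33). Libraries of all other neighbours with counts in these orders were apart, except that EMT6 KO had too few Krt14 and Krt17 counts to order them.

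Differences between KO and WT were tested on the counts of all genes with edgeR's quasi-likelihood test, and a gene was called where the Benjamini-Hochberg adjusted p was under 0.05. In 4T1, 8 of the 9 keratins had enough counts to be tested, and 3 were called, all lower in KO (Krt8, Krt18 and Krt19). Among all 13313 genes tested in 4T1, 57% were called and 29% were called lower. In EMT6, 6 of the 9 were tested and 5 were called, with Krt7, Krt18, Krt14 and Krt80 lower and Krt8 higher in KO. Among all 12890 genes tested in EMT6, 56% were called, 28.2% lower and 27.9% higher. With a log2 change of at least 1 as well, the share of genes called was 7.65% in 4T1, where 0 of the 8 keratins reached it (5.68% of genes higher and 1.97% lower), and 10% in EMT6, where 3 of the 6 did (Krt7, Krt14 and Krt18, all lower, against 5.48% of genes called lower and 4.55% called higher by that rule). The median log2 change of the tested keratins was -0.22 in 4T1 and -0.90 in EMT6, beside medians of 0.0003 and 0.00055 over all genes tested. Among called genes, 49.1% were higher in 4T1 KO, or 61.2% with scaling by total counts only, which raised the median of all genes by 0.080. Counts over the gene lists below were made with TMM scaling, and the lists were not recounted with other scalings.

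**Figure D2:**
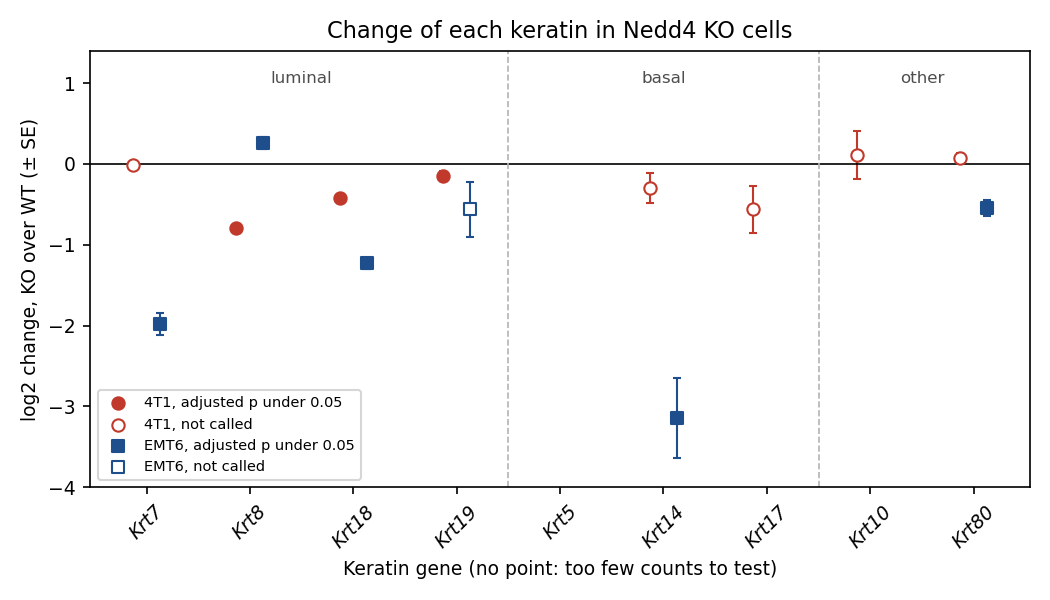
Log2 change of KO over WT for each tested keratin in 4T1 (circles) and EMT6 (squares), with the standard error of the fit as bars; filled symbols have an adjusted p under 0.05 (edgeR) and genes without a symbol had too few counts. Krt8 lies below 0 in 4T1 and above 0 in EMT6, and Krt14 and Krt7 lie lowest in EMT6.

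Krt8 and Krt18 are neighbours on chromosome 15. The deposited tables, whose coordinates carry no build, place Krt8 (ENSMUSG00000049382) at 101905133 to 101912917 on the minus strand and Krt18 (ENSMUSG00000023043) at 101936615 to 101940462 on the plus strand. The 250 bases before the transcription start of both genes, and of Krt7, are shown because these are the keratins with the most counts whose changes differed between the lines. Sequences are from RefSeq on GRCm38.p6, a reference genome and not the lines' own DNA, and the table used holds promoters of 6 of the 9 genes. Capitals mark GC boxes (GGGCGG) and the letters CAGGTG on either strand.
Krt8, chr15:102004343-102004592, minus strand: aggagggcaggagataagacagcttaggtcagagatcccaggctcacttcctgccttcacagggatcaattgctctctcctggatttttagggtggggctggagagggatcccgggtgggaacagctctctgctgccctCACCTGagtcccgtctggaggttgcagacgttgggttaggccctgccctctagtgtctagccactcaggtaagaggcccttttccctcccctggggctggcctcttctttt
Krt18, chr15:102027966-102028215, plus strand: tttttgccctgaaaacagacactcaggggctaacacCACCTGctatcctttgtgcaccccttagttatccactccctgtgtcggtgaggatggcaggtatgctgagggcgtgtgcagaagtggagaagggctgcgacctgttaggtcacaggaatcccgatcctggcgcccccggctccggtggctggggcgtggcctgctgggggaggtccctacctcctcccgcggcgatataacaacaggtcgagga
Krt7, chr15:101412153-101412402, plus strand: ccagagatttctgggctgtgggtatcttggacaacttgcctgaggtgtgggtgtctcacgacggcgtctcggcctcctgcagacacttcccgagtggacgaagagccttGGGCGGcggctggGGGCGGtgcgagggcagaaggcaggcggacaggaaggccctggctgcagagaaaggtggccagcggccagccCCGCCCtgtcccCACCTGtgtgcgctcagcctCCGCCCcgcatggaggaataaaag

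The hexamer CAGGTG is the core bound by repressors of the ZEB and SNAI families. It was present in each of the 3 windows, 111 bases before the start of Krt8, 214 before that of Krt18 and 44 before that of Krt7. Among the other keratin windows held, Krt5 (128 bases before its start) and Krt10 (52) also had it, and Krt14 did not. CAGGTG occurred in 17.2% of 32851 promoter windows of the same length, and these letters were chosen after the windows had been read. Krt7 had 4 GC boxes, which lay 24, 56, 128 and 141 bases before its start and did not overlap CAGGTG. At least 1 GC box was found in 32.7% of all windows, while the Krt8 and Krt18 windows held none. The motifs TATAAA (12.4% of windows), TGANTCA for AP-1 (6.75%) and CCGGAAG for ETS factors (6.91%) were searched on both strands and had no match in the 3 windows.

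In 4T1 both members of the pair fell in KO cells, Krt8 further than Krt18. Krt8 stood at 404.61, 389.68 and 404.17 FPKM in 4T1 KO libraries, against 664.24, 645.69 and 655.14 FPKM in 4T1 WT libraries. Its log2 change was -0.79 ± 0.04 (SE; edgeR, adjusted p = 1.04e-13), which is 0.577 times the WT level. Krt18 stood at 737.42, 714.80 and 772.39 FPKM in 4T1 KO libraries, against 956.51, 906.65 and 966.90 FPKM in 4T1 WT libraries. The groups did not overlap for either gene. The log2 change of Krt18 was -0.43 ± 0.04 (edgeR, adjusted p = 6.76e-09), or 0.744 times the WT level. In bulk RNA, fewer cells that express a gene and less of its RNA per cell cannot be told apart.

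In EMT6 the partners moved in opposite directions. Krt8 stood at 360.62, 343.45 and 351.45 FPKM in EMT6 KO libraries, against 272.83, 330.81 and 276.38 FPKM in EMT6 WT libraries. All KO libraries lay above all WT libraries, with WT replicate 2 nearest to them. Krt8 rose by 0.26 ± 0.07 on the log2 scale (edgeR, adjusted p = 0.00632), 1.20 times the WT level. Krt18 stood at 30.83, 33.63 and 33.02 FPKM in EMT6 KO libraries, against 72.67, 81.02 and 75.01 FPKM in EMT6 WT libraries. Every KO library was thus below every WT library, and the log2 change was -1.23 ± 0.07 (edgeR, adjusted p = 2.64e-10), 0.426 times the WT level.

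The change of both genes differed between the lines. The log2 change in EMT6 minus that in 4T1 was 1.06 ± 0.09 for Krt8 (edgeR interaction, adjusted p = 6.55e-11) and -0.80 ± 0.08 for Krt18 (edgeR interaction, adjusted p = 1.67e-09). Of the 8 keratins tested for this difference 5 were called, namely Krt7, Krt8, Krt18, Krt14 and Krt80, beside 53.4% of 14301 genes. By at least 1 on the log2 scale, Krt8 was called with the more positive change in EMT6, as were 5.84% of genes, and Krt7 and Krt14 with the more negative one, as were 9.82%.

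The ratio of Krt8 to Krt18 moved in opposite directions in the 2 lines. Krt8 FPKM divided by Krt18 FPKM was 0.549, 0.545 and 0.523 in 4T1 KO libraries, against 0.694, 0.712 and 0.678 in 4T1 WT libraries. It was 11.7, 10.2 and 10.6 in EMT6 KO libraries, against 3.75, 4.08 and 3.68 in EMT6 WT libraries. The ratio was lower in every KO library of 4T1 and higher in every KO library of EMT6 than in the WT libraries of the same line. Over all 9 genes, summed type II FPKM divided by summed type I FPKM averaged 0.598 ± 0.0153 in 4T1 KO and 0.730 ± 0.0165 in 4T1 WT, and 10.8 ± 0.792 in EMT6 KO and 3.89 ± 0.193 in EMT6 WT. On this scale per length, summed type II transcripts thus exceeded type I in EMT6 and fell short of them in 4T1. By CPM, which does not divide by length, type II exceeded type I in 4T1 as well. The CPM sums averaged 1260 ± 21.9 for type II and 1142 ± 43.5 for type I in 4T1 KO. In 4T1 WT they averaged 1736 ± 37.0 and 1436 ± 46.2. Krt8 itself stayed below Krt18 by CPM in every 4T1 library. These ratios and sums are descriptions of RNA, with no test, and protein was not measured.

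**Figure D3:**
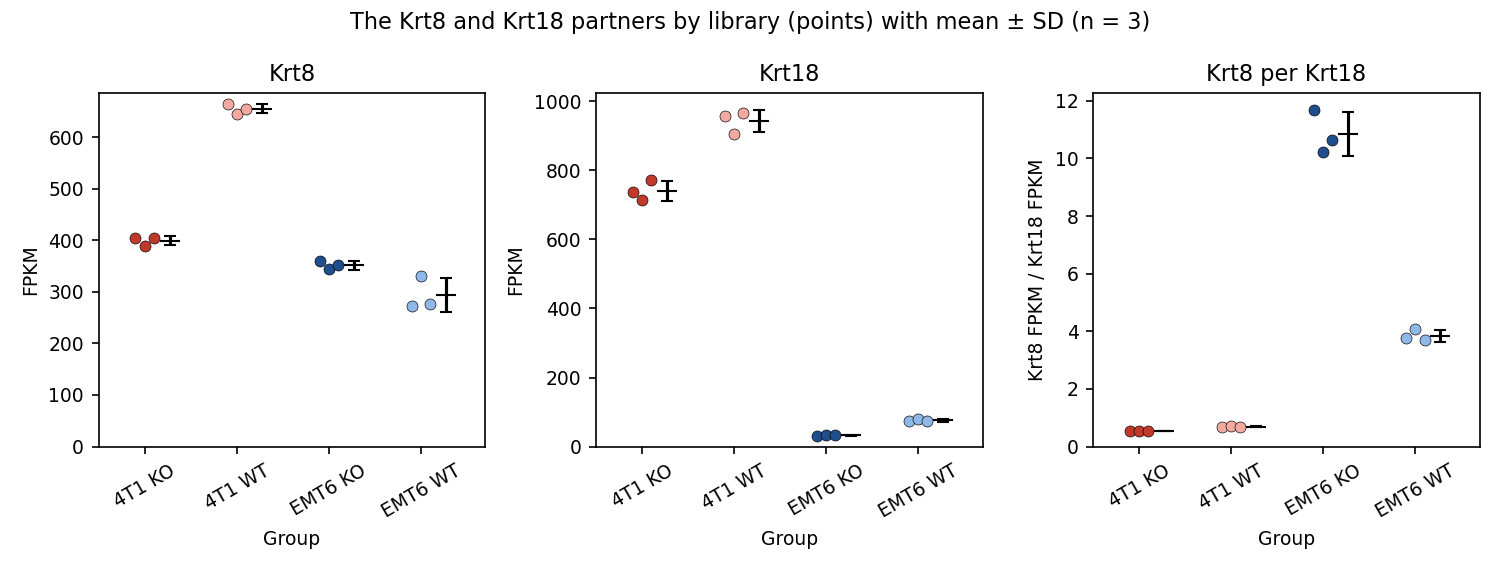
FPKM of Krt8 and Krt18 and their ratio in each library (points), with the mean and SD of 3 libraries beside them, for 4T1 KO, 4T1 WT, EMT6 KO and EMT6 WT. Krt8 averages 399 FPKM in 4T1 KO, 655 in 4T1 WT, 352 in EMT6 KO and 293 in EMT6 WT, and the ratio averages 10.9 in EMT6 KO, against 3.84 in EMT6 WT.

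Krt8 reads can be split with a copy. Of the 50-base stretches in Krt8 transcripts of GENCODE M21, 26.9% also occur in the processed pseudogene Krt8-ps, and the sources used here do not give how the authors counted reads with several matches. Krt8-ps was listed with 100 to 111 counts in 4T1 KO, 139 to 157 in 4T1 WT, 87 to 150 in EMT6 KO and 70 to 94 in EMT6 WT, beside 7643 to 21006 counts of Krt8 over all libraries. For Krt18 the shared portion was 0.72%. Gm36026, which overlaps Krt8 on the other strand, had at most 26 counts in any library.

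Krt7 (ENSMUSG00000023039; chromosome 15, 101308924 to 101328194, plus strand), a type II keratin of simple ducts and glands, was high in both 4T1 groups and fell in EMT6 KO. It stood at 60.28, 59.24 and 60.84 FPKM in 4T1 KO libraries, against 59.21, 54.01 and 58.98 FPKM in 4T1 WT libraries. The KO libraries were slightly above on this scale, but the log2 change after scaling was -0.01 ± 0.04 (edgeR, adjusted p = 0.834). In EMT6 KO libraries Krt7 stood at 0.60, 0.79 and 0.67 FPKM (82, 110 and 74 counts), against 3.09, 2.40 and 2.66 FPKM (312, 309 and 360 counts) in EMT6 WT libraries. The EMT6 groups were well apart, with a log2 change of -1.98 ± 0.14 (edgeR, adjusted p = 4.43e-09), 0.254 times the WT level. The change in EMT6 minus that in 4T1 was -1.95 ± 0.11 on the log2 scale (edgeR interaction, adjusted p = 4.15e-14).

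Krt19 (ENSMUSG00000020911; chromosome 11, 100031636 to 100039491, minus strand), a type I keratin without the tail domain of its relatives, gave the smallest called change of the 9 in 4T1. In 4T1 KO libraries it stood at 36.82, 35.92 and 36.70 FPKM, against 34.68, 39.24 and 41.02 FPKM in 4T1 WT libraries, and the groups overlapped. Its call in 4T1 (log2 change -0.15 ± 0.06; edgeR, adjusted p = 0.0397) was lost with DESeq2 (adjusted p = 0.09), with scaling by total counts only (adjusted p = 0.346), and without KO replicate 2 or 3 or WT replicate 2 or 3 (adjusted p = 0.108, 0.0687, 0.138 and 0.16), over a range of 0.00376 to 0.346 among all alternatives. EMT6 held few Krt19 reads, 13, 20 and 21 counts in KO and 20, 32 and 24 counts in WT libraries. Its log2 change there was -0.56 ± 0.34 (edgeR, adjusted p = 0.171), and a difference was not detectable at this depth.

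Among the basal keratins, Krt5 (ENSMUSG00000061527; chromosome 15, 101615505 to 101621333, minus strand), the type II partner of the class, had 0 counts in all 12 libraries, which allows up to 0.0691 to 0.0996 FPKM per library by a limit of 3 counts. Krt14 (ENSMUSG00000045545; chromosome 11, 100093988 to 100098374, minus strand), its type I partner in basal cells, was the most abundant of the 3. It stood at 2.45, 2.84 and 3.91 FPKM in 4T1 KO libraries, against 2.78, 3.49 and 4.52 FPKM in 4T1 WT libraries. These groups overlapped, and the log2 change of -0.30 ± 0.19 was not called (edgeR, adjusted p = 0.186). Without 4T1 KO replicate 3, the highest KO library, it was called at -0.51 (edgeR, adjusted p = 0.033, against 0.033 to 0.642 over all alternatives).

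Krt14 fell to near the limit of detection in EMT6 KO libraries, which held 1, 5 and 4 counts (0.03, 0.14 and 0.14 FPKM), against 20, 42 and 25 counts (0.80, 1.31 and 0.74 FPKM) in EMT6 WT libraries. The groups did not overlap, and the log2 change was -3.15 ± 0.49 (edgeR, adjusted p = 4.71e-05). It was -2.84 ± 0.53 relative to the change in 4T1 (edgeR interaction, adjusted p = 5.61e-05). Of the 50-base stretches of Krt14, 13.9% also occur in other genes, chiefly in Krt16, a type I keratin of stressed epidermis. Krt16 had 5 to 13 counts in 4T1 KO and 30 to 40 in 4T1 WT, and 1 to 5 in EMT6 KO and 3 to 7 in EMT6 WT libraries.

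Krt17 (ENSMUSG00000035557; chromosome 11, 100147043 to 100151855, minus strand), a type I keratin of basal cells and of injured epidermis, had 20, 23 and 21 counts in 4T1 KO libraries, against 27, 29 and 23 counts in 4T1 WT libraries. Its FPKM of 0.76 to 0.90 in 4T1 KO lay below the 1.08 to 1.25 of 4T1 WT, yet the log2 change of -0.56 ± 0.29 was not called (edgeR, adjusted p = 0.0978). In EMT6 it had 3, 0 and 0 counts in KO libraries and 0 in WT libraries, too few for a test.

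Summed over each class, the luminal keratins were lower in every 4T1 KO library than in any 4T1 WT library. Their summed FPKM averaged 1238 ± 37.3 in 4T1 KO and 1694 ± 42.2 in 4T1 WT, with no overlap, and 386 ± 7.0 in EMT6 KO and 373 ± 36.6 in EMT6 WT, where the libraries overlapped. These sums are mostly Krt8 and Krt18, and the members did not all move together. In 4T1, Krt7 was not called (-0.01 ± 0.04). In EMT6, Krt8 was called higher (0.26 ± 0.07), and Krt18 (-1.23 ± 0.07) and Krt7 (-1.98 ± 0.14) were called lower. The basal sum averaged 3.88 ± 0.744 FPKM in 4T1 KO and 4.73 ± 0.87 FPKM in 4T1 WT, with overlap, and 0.137 ± 0.00577 FPKM in EMT6 KO and 0.950 ± 0.313 FPKM in EMT6 WT, without. Basal keratins therefore made up 0.312 ± 0.0538% of luminal plus basal FPKM in 4T1 KO and 0.279 ± 0.0503% in 4T1 WT, against 0.0355 ± 0.00206% in EMT6 KO and 0.250 ± 0.0565% in EMT6 WT. The EMT6 share rests on 13 basal counts in the 3 KO libraries and 87 in the 3 WT libraries. Those of WT were all of Krt14, and those of KO were 10 of Krt14 and 3 of Krt17. In EMT6 KO replicate 1, Krt17 gave 0.10 FPKM and Krt14 0.03 FPKM, while the other KO libraries held Krt14 alone. The small SD of the KO sum and share thus joins libraries of unlike make-up. As sums over members, these values are given without a test.

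**Figure D4:**
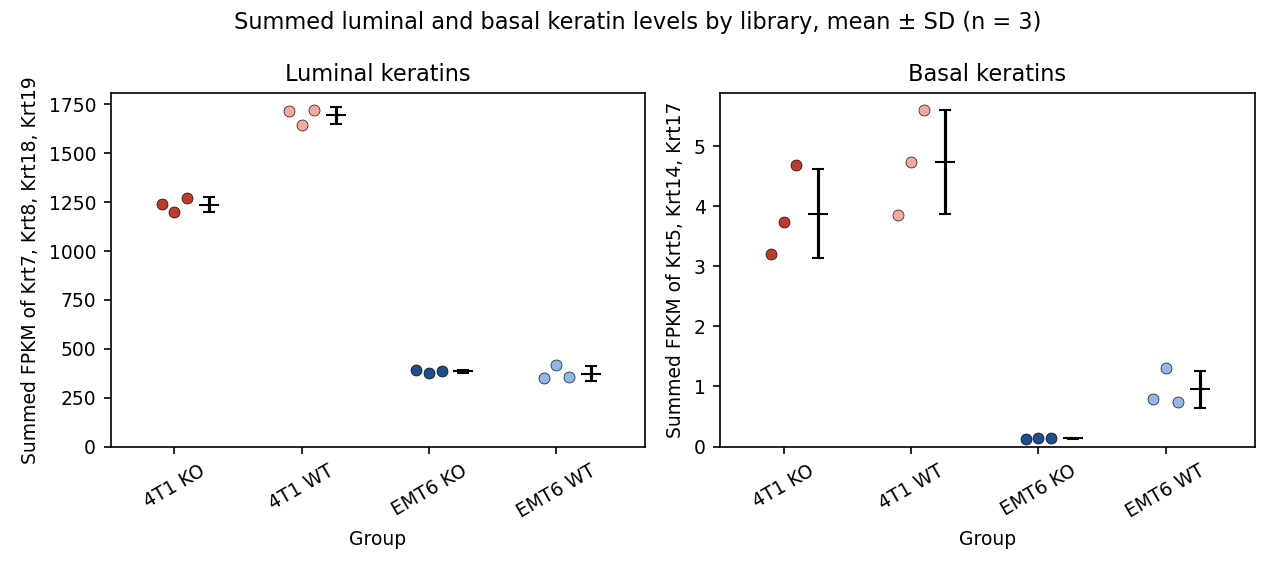
Summed FPKM of the luminal keratins (left) and of the basal keratins (right) in each library, with mean and SD of 3 libraries beside the points, on axes of different range. The luminal sum averages 1238 in 4T1 KO and 1694 in 4T1 WT, while the basal sum stays below 6 FPKM in every library.

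Krt80 (ENSMUSG00000037185; chromosome 15, 101245325 to 101268043, minus strand) had 501 or more counts in every library. It stood at 8.77, 8.54 and 8.27 FPKM in 4T1 KO libraries, against 7.62, 7.82 and 7.48 FPKM in 4T1 WT libraries. The KO libraries lay above, but the log2 change of 0.08 ± 0.06 was not called (edgeR, adjusted p = 0.261), except with scaling by total counts only (0.16, adjusted p = 0.026, over a range of 0.026 to 0.588). In EMT6 KO libraries it stood at 5.52, 5.83 and 4.98 FPKM, against 8.08, 8.99 and 6.87 FPKM in EMT6 WT libraries. Krt80 fell there by 0.55 ± 0.10 on the log2 scale (edgeR, adjusted p = 0.000263), and this change differed from that in 4T1 by -0.62 ± 0.12 (edgeR interaction, adjusted p = 6.46e-05). Gm35853, which overlaps Krt80 on the other strand, had 38 to 58 counts in 4T1 KO and 21 to 31 in 4T1 WT, and 2 to 6 in EMT6 KO and 28 to 34 in EMT6 WT libraries, beside 501 to 1051 counts of Krt80. Without a stated strand setting the reads of such a pair cannot be told apart.

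Krt10 (ENSMUSG00000019761; chromosome 11, 99276080 to 99280190, minus strand), whose usual partner Krt1 had 0 counts in all libraries, had 23, 34 and 43 counts in 4T1 KO libraries, against 19, 35 and 23 counts in 4T1 WT libraries. The groups overlapped, with a log2 change of 0.11 ± 0.30 (edgeR, adjusted p = 0.781). In EMT6 it had 0 counts in KO and 1 count in 1 of the WT libraries, too few for a test.

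Between the untargeted lines, 7 of the 8 tested keratins were called, all higher in 4T1 WT than in EMT6 WT, where 74.7% of 14301 genes were called and 37.2% called higher. Krt19 was higher by 5.56 ± 0.13 on the log2 scale (47.2 times), Krt7 by 4.38 ± 0.07 (20.9 times) and Krt18 by 3.60 ± 0.06 (12.1 times). Krt14 was higher by 1.88 ± 0.26 and Krt8 by 1.13 ± 0.06 (edgeR, adjusted p from 2.37e-29 to 2.06e-07 over these 5). Krt17, at 79 counts over the 4T1 WT libraries and 0 over those of EMT6 WT, was at least 30.4-fold higher by a limit of 3 counts over the group. Krt10 had 77 counts over the 4T1 WT libraries and 1 over those of EMT6 WT, a ratio of CPM of 89.0 with a 95% counting interval of 15.5 to 3559. Krt80 was not called (-0.09 ± 0.08; edgeR, adjusted p = 0.334). It was called at -0.20 without EMT6 WT replicate 3 (edgeR, adjusted p = 0.0215, over a range of 0.0215 to 0.808). Each line has its own table, so line and table cannot be told apart.

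Other keratins added little. Of the 45 further keratin symbols, 29 had no count in any library and 37 never exceeded 3 counts. Only Krt16 reached a mean of 1 FPKM in a group, at 0.360 ± 0.154 FPKM in 4T1 KO and 1.45 ± 0.243 FPKM in 4T1 WT. It was also the sole called gene of the 3 tested in 4T1, with a log2 change of -2.05 ± 0.35 (edgeR, adjusted p = 1.93e-05), and it is named after its values were seen. In EMT6 none of the 45 had enough counts for a test.

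The shares of all tested genes that were called, to be read beside each list, were 28% higher and 29% lower in 4T1 KO, and 27.9% higher and 28.2% lower in EMT6 KO. No difference between a list and all genes was tested. Genes that anchor keratin filaments at desmosomes and hemidesmosomes come first. Of 16 tested plakin and desmosome genes in 4T1, 3 were called higher and 8 lower (median log2 change -0.16). Itgb4, the integrin beta subunit of hemidesmosomes, fell to 14.6 ± 1.03 FPKM in 4T1 KO, against 20.7 ± 0.756 FPKM in 4T1 WT (-0.58 ± 0.06). The desmosomal plakophilin Pkp1 fell by 0.65 ± 0.10 and the desmosomal cadherin Dsg2 by 0.30 ± 0.06, while Pkp4 rose by 0.30 ± 0.05. Of the 13 tested in EMT6, 2 were higher in KO and 9 lower, 6 of them by at least 1 on the log2 scale (median -0.86), a size that 5.48% of all genes reached. Desmoplakin (Dsp), which ties keratins to desmosomes, fell to 6.76 ± 0.386 FPKM in EMT6 KO, against 20.2 ± 1.24 FPKM in EMT6 WT (-1.57 ± 0.06). Itgb4 fell by 2.17 ± 0.10 and the plakophilin Pkp3 by 1.33 ± 0.08, whereas Perp, a desmosomal membrane protein, rose to 7.28 ± 0.584 FPKM in EMT6 KO, against 0.167 ± 0.0751 FPKM in EMT6 WT. In 4T1 KO, by contrast, Dsp rose by 0.13 ± 0.05 and Perp fell by 0.29 ± 0.06. The EMT6 minus 4T1 difference was -1.70 ± 0.08 for Dsp and -1.58 ± 0.11 for Itgb4 (edgeR interaction, adjusted p = 3.87e-16 and 1.7e-12).

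Transcription factors known to act on keratin genes or epithelial identity were called in both directions. In 4T1, 6 of 20 tested were higher and 7 lower (median -0.12), shares near those of all genes (28% and 29%). Sox15 fell to 0.567 ± 0.188 FPKM in 4T1 KO, against 7.85 ± 0.996 FPKM in 4T1 WT, and Ovol1, Sox9 and the luminal factor Gata3 fell by 1.07 ± 0.14, 0.55 ± 0.05 and 0.46 ± 0.05. In EMT6, 5 of 16 were higher and 7 lower (median -0.17). Sox9 rose there by 1.05 ± 0.12, a difference between the lines of 1.60 ± 0.12 (edgeR interaction, adjusted p = 5.49e-12). Elf3, an ETS factor of epithelia, fell to 1.79 ± 0.145 FPKM in EMT6 KO, against 11.3 ± 0.798 FPKM in EMT6 WT (-2.65 ± 0.12). Klf5 fell by 1.20 ± 0.08, Tfap2a by 0.94 ± 0.08, and Trp63, the p63 gene that activates Krt5 and Krt14 in epidermis, by 0.95 ± 0.08, to 2.53 ± 0.0493 FPKM in EMT6 KO, against 4.90 ± 0.406 FPKM in EMT6 WT. The ZEB and SNAI repressors, named after their values were seen, did not move as one. In 4T1, Zeb2 was higher in KO (0.19 ± 0.06) and Snai1 was not called (-0.07 ± 0.08; edgeR, adjusted p = 0.00948 and 0.453), and the others had too few counts for a test. In EMT6, Zeb2 (0.38 ± 0.07) and Snai1 (0.49 ± 0.11) were higher in KO (edgeR, adjusted p = 0.000233 and 0.00295), while Zeb1 (-0.18 ± 0.08) and Snai2 (-0.16 ± 0.12) were not called (edgeR, adjusted p = 0.0832 and 0.287).

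Among intermediate filament genes other than keratins, calls went in both directions. In 4T1, 5 of 10 tested were called higher and 3 lower (median 0.06), beside 28% and 29% of all genes. In EMT6, 4 of 7 were higher and 2 lower (median 0.42), beside 27.9% and 28.2%. Vim, the vimentin of mesenchymal and cultured cells, rose to 571 ± 15.8 FPKM in 4T1 KO, against 496 ± 24.5 FPKM in 4T1 WT (0.12 ± 0.04), and to 839 ± 42.4 FPKM in EMT6 KO, against 610 ± 33.1 FPKM in EMT6 WT (0.46 ± 0.06). The nuclear lamin genes Lmna and Lmnb1 fell by 0.33 ± 0.04 and 0.22 ± 0.05 in 4T1 KO and rose by 0.42 ± 0.06 and 0.62 ± 0.10 in EMT6 KO. Their changes differed between the lines by 0.76 ± 0.08 and 0.85 ± 0.11 (edgeR interaction, adjusted p = 4.32e-09 and 6.68e-06). Syncoilin (Sync) rose by 0.54 ± 0.14 in 4T1 KO and fell by 1.60 ± 0.33 in EMT6 KO (edgeR interaction -2.14 ± 0.32, adjusted p = 2.24e-06), and nestin (Nes) fell by 0.53 ± 0.07 in EMT6.

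Of 9 tested genes listed as keratin-binding or assembly factors, 1 was called higher and 6 lower in 4T1 KO (median -0.23), beside 28% and 29% of all genes. Binding to keratins was not measured. Fam83h, which recruits casein kinase 1 to keratin filaments, fell by 0.48 ± 0.05, that kinase (Csnk1a1) by 0.28 ± 0.04, and the 14-3-3 genes Ywhaz and Ywhah by 0.33 ± 0.04 and 0.35 ± 0.05. In EMT6, 2 of 9 were higher and 3 lower (median 0.01), with Fam83h down by 0.30 ± 0.06, Ywhae down by 0.31 ± 0.06, and Ywhah and Itgb1bp1 up by 0.45 ± 0.06 and 0.36 ± 0.10.

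Mammary compartment markers other than keratins were tested in small numbers, to be read against 28% of all genes called higher and 29% lower in 4T1, and 27.9% and 28.2% in EMT6. In 4T1, 3 of 5 tested luminal markers were lower and 0 higher, with Epcam down by 1.13 ± 0.04, Cd24a by 0.69 ± 0.05 and the milk protein gene Csn3 by 0.68 ± 0.13. In EMT6, 1 of 4 was higher (Cd24a, 1.13 ± 0.24) and 2 lower, Epcam at -1.59 ± 0.32 and Esr1 at -0.26 ± 0.08. Cd24a was low there, at 1.46 ± 0.191 FPKM in EMT6 KO and 0.670 ± 0.145 FPKM in EMT6 WT. Of the basal markers, 3 of 7 were higher and 3 lower in 4T1, where Igfbp4 fell by 0.61 ± 0.04, Procr by 0.52 ± 0.05 and the integrin Itga6 by 0.21 ± 0.05. Those that rose were Vim (0.12 ± 0.04), the cadherin Cdh3 (1.94 ± 0.46) and the myosin kinase gene Mylk (0.98 ± 0.15), of which Cdh3 and Mylk were named after their values were seen. Both were below 1 FPKM in 4T1. Cdh3 stood at 0.317 ± 0.110 FPKM in 4T1 KO and 0.080 ± 0.0436 FPKM in 4T1 WT, and Mylk at 0.780 ± 0.0265 FPKM and 0.373 ± 0.0462 FPKM. In EMT6, 3 of 9 were higher and 5 lower. Acta2, smooth-muscle actin, rose to 343 ± 10.8 FPKM in EMT6 KO, against 18.3 ± 2.81 FPKM in EMT6 WT, while Cdh3 fell by 5.40 ± 0.14, Igfbp4 by 1.33 ± 0.05 and Itga6 by 1.00 ± 0.08. Of the cornified envelope genes, 1 of 3 tested was higher and 1 lower in 4T1, with Sfn (14-3-3 sigma) down by 1.30 ± 0.08. Both genes tested in EMT6 were higher, Cstb by 0.42 ± 0.07 and Sfn by 0.35 ± 0.09.

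Some markers of other cell types also changed in EMT6, not all in the same direction. The summed FPKM of 6 fibroblast markers was 211 to 243 in EMT6 KO and 158 to 179 in EMT6 WT, with Lum at 0 in both. Nearly all of it was Col1a1 (202 ± 16.7 FPKM in KO and 165 ± 11.5 FPKM in WT). Col1a1 (0.30 ± 0.07), Pdgfrb (3.36 ± 0.13) and Col3a1 (7.09 ± 0.15) were called higher in EMT6 KO. Pdgfra was called lower (-0.20 ± 0.08; edgeR, adjusted p = 0.0387), and Dcn was near 0. The summed FPKM of 5 myoepithelial markers was 334 to 356 in EMT6 KO and 21.4 to 26.0 in EMT6 WT, nearly all of it Acta2. The 2 tested genes of that list went in opposite directions in EMT6 KO, Acta2 higher (4.23 ± 0.10) and Trp63 lower (-0.95 ± 0.08). Myh11, Cnn1 and Oxtr averaged at most 0.13 FPKM in either EMT6 group. In 4T1 these sums were 5.23 to 5.45 in KO and 4.88 to 5.82 in WT for fibroblasts, and 0.23 to 0.47 in KO and 0.05 to 0.06 in WT for myoepithelium. Of the 6 leukocyte, 4 endothelial and 3 adipocyte markers none summed above 1.1 FPKM per list in any library, and Cd3e and Adipoq were at 0 in all groups. Csf1r, the sole leukocyte marker tested in EMT6, was called higher in KO (1.02 ± 0.19). It averaged 1.04 ± 0.0850 FPKM in EMT6 KO and 0.513 ± 0.0987 FPKM in EMT6 WT, and the other 5 leukocyte markers were at 0 in both. The part of these markers in the keratin differences was not tested.

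The genes whose profile over all 12 libraries lay nearest to those of the leading luminal and basal keratin were sought among 10465 genes that averaged 1 FPKM or more. The measure was the root mean square difference of log2 CPM after centring each gene. It spans both lines, between which Krt18 differed by 3.60 on the log2 scale in WT, so nearness does not measure the KO change alone. Nearest to Krt18 were Itga6 (0.193), the semaphorin Sema5a (0.215) and the ERK phosphatase Dusp4 (0.234). Dusp4 averaged 31.7 FPKM in 4T1 KO and 43.9 in 4T1 WT, and 1.48 in EMT6 KO and 4.83 in EMT6 WT. Sema5a averaged 0.09 FPKM in EMT6 KO and 0.167 in EMT6 WT. Nearest to Krt14 were the matrix gene Ltbp2 (0.357), the transporter Abcc4 (0.389) and Tmem184a (0.426), the last at 0.1 FPKM in EMT6 KO. Against these, Krt7 lay 0.746, Krt19 0.892, the filament partner Krt8 1.78 and Krt80 1.91 from Krt18. Distances from or to keratins with few counts in EMT6, Krt14 among them, depend on the prior count of 2 used for log2 CPM, and those of Krt10 and Krt17 are not given for that reason.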

How the data were processed

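Messenger RNA was sequenced from 4 groups of 3 libraries. Per the submitters' processing notes, cutadapt 1.9.1, HISAT2 2.2.1, HTSeq 0.6.1, DESeq2 and GRCm38 were used, with no role stated. The deposited tables hold raw read counts per gene and FPKM made by the authors. FPKM computed from count, deposited exonic length and library total matched all 680292 deposited FPKM values within 0.006. Count intervals and limits hold counting error alone, because no molecular identifiers mark independent molecules.

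Counts were filtered with filterByExpr, scaled by TMM and fitted in R 4.3.3 with edgeR 4.0.16 (quasi-likelihood, robust), per line for KO against WT and over all 12 libraries for the interaction of line and KO and for the WT lines. P-values are 2-sided and adjusted by Benjamini-Hochberg over all genes of a fit. The standard error is the log2 change divided by the square root of the F statistic. The scripts were tested on simulated data.

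The keratins and 8 related gene lists were chosen with earlier results of these data known. Every keratin was described. From each list up to 4 called genes per line with the lowest adjusted p and a mean of at least 1 FPKM were named. The 3 genes nearest in profile to the luminal and to the basal keratin of highest mean were added. Marker lists of 6 cell types were summed. Of the listed symbols all were found. Alternatives were DESeq2 1.42.0, DESeq2 size factors, scaling by total counts, no filter, a replicate block and leaving out each library.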

Additional observations from a re-analysis of the deposited data

Results flagged for a closer look

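The KO effect differed between the lines for 5 of the 8 tested keratins, by the interaction of line and KO in edgeR. Among all 14301 genes tested for it, 53.4% were called. The log2 change in EMT6 minus that in 4T1 was -1.95 for Krt7, 1.06 for Krt8, -0.80 for Krt18, -2.84 for Krt14 and -0.62 for Krt80. Krt8 was called in opposite directions, lower in 4T1 KO and higher in EMT6 KO. Krt18 was called lower in both lines, with the larger change in EMT6. Krt7, Krt14 and Krt80 were called lower in EMT6 KO and were not called in 4T1. The EMT6 value of Krt14 rests on 10 counts over the 3 KO libraries and 87 over the 3 WT libraries. Groups of 3 libraries are too small to test for a library that stands apart.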

How the results depend on the processing

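Over the alternatives run, 2 or 3 keratins were called in 4T1, 5 in EMT6, 5 or 6 for the interaction and 7 or 8 between the WT lines. In the same order, 57%, 56%, 53.4% and 74.7% of all tested genes were called in the main fits. The calls and directions of Krt8 and Krt18 in both lines, and of Krt7, Krt14 and Krt80 in EMT6, held in every alternative run. Of 418 alternative values of single keratins, 403 kept direction and call, 6 lost a call (all of Krt19 in 4T1), 4 gained one and 5 changed sign. The sign changes were of uncalled values. Krt7 in 4T1 was 0.068 with scaling by total counts only. With 1 library left out at a time, Krt7 in 4T1 ranged from -0.041 to 0.0081 (positive without WT replicate 1), Krt10 in 4T1 from -0.13 to 0.40 (negative without KO replicate 3 or WT replicate 1), and Krt80 between the WT lines from -0.20 to 0.024 (positive without EMT6 WT replicate 2). Krt17 gained an interaction call without EMT6 KO replicate 2 (adjusted p = 0.0473, edgeR, over a range of 0.0473 to 1), on 3 counts in 1 EMT6 library. The causes were not tested.

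The luminal share of luminal plus basal FPKM was 99.7% in 4T1 KO, 99.7% in 4T1 WT, 99.96% in EMT6 KO and 99.7% in EMT6 WT. Without the most abundant luminal keratin of the group it was 99.2%, 99.4%, 99.6% and 98.8% in the same order of groups, by construction a smaller sum. With CPM in place of FPKM it was 99.97% in EMT6 KO.

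Replicate numbers gave no sign of pairing the libraries. Deviations of same-numbered KO and WT libraries from their group means correlated between -0.0233 and 0.00915 in 4T1 and between -0.13 and -0.00713 in EMT6. For libraries of different number the range was -0.0397 to 0.0498 in 4T1 and -0.0225 to 0.127 in EMT6. The deviations of the 3 libraries of a group sum to 0, so these correlations cannot exclude pairing by design. Whether libraries were paired under other numbers was not tested. With a replicate block, 7676 genes were called in 4T1 (7589 without), 6830 in EMT6 (7224) and 7407 for the interaction (7638), and 3, 5 and 5 keratins. The block was not run for the WT lines. Krt5, and in EMT6 Krt10 and Krt17, are limited by depth.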
